A study of Mus musculus with 28 samples.

Results

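The genes described here are 10 liver-secreted hormones and binding proteins, Fgf21, Angptl4, Igfbp1, Igfbp2, Fst, Inhbe, Fgl1, Ahsg, Fetub and Lect2. They were chosen as proteins that the liver releases into blood, with earlier results of these data known. All 10 have a row among the 24197 RefSeq genes of the deposited table. The RNA was polyadenylated nuclear RNA from whole livers of outbred CD-1 mice, killed in the late morning after treatment with TCPOBOP or vehicle. TCPOBOP is a synthetic ligand that activates CAR, the constitutive androstane receptor (gene Nr1i3), a nuclear receptor known for inducing drug-metabolising enzymes in hepatocytes. The comparisons address how this ligand changes liver gene expression after a short and a longer treatment, in both sexes at the shorter time.

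There were 28 libraries, each from 1 liver, in 8 groups. At 2 weeks, 4 males given 3 mg/kg TCPOBOP in little corn oil (10% DMSO, 4 µl for each g of weight) were set against 3 vehicle males. Likewise 4 TCPOBOP females at 2 weeks were set against 3 vehicle females. These mice were 9 to 10 weeks old. At 8 weeks, 3 males given 3 mg/kg and then weekly 1 mg/kg in a high volume of corn oil (2% DMSO at the first dose, 20 µl for each g) were set against 3 vehicle males. A further 4 males given 3 mg/kg and then further doses of 1.5 mg/kg in the low volume were set against 4 vehicle males whose treatment lasted 4 to 8 weeks. Age was 15 to 16 weeks in the 8-week groups, apart from 2 of the low-oil vehicle males, which were 11 to 12 weeks old. All groups received corn oil with DMSO, so none was untouched. The study's design text gives a younger age and 14 days of treatment, which differs from the labels of the 8-week groups. The set codes in the sample titles put all 8-week low-oil libraries in G186 and the other groups in G184, except for 1 TCPOBOP female in G185. Each value is the authors' value for a group in FPKM (fragments per kilobase of gene body, scaled to library size), so no spread between mice and no depth of a library can be given.

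Hepatokines are proteins by which the liver signals to other organs. FGF21 is a fasting and stress hormone that acts through FGF receptors together with the co-receptor beta-klotho, and its gene is a known target of PPARα and of the stress factor ATF4. Inhbe encodes the activin βE subunit, and follistatin (Fst) binds and neutralises activins. Insulin-like growth factor binding proteins (Igfbp1, Igfbp2) hold IGFs in plasma, ANGPTL4 inhibits lipoprotein lipase, and fetuin-A (Ahsg) and fetuin-B (Fetub) are cystatin-superfamily plasma proteins. FGL1 is a fibrinogen-like protein known as a hepatocyte acute-phase product and as a ligand of the T-cell receptor LAG3. LECT2 is a leukocyte chemotaxin made by hepatocytes, with MET and TIE1 among its known receptors.

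Of the 10 genes, 7 have a promoter entry in the RefSeq table used (build GRCm38.p6), namely all but Angptl4, Fst and Fgl1. The stretches below are shown because Fgf21 and Inhbe were lower and Lect2 was higher with TCPOBOP. Capitals mark matches to TGATGNAA, the composite element of ATF4 and C/EBP factors, in Fgf21 and Inhbe, and to GTTAAT, the core of the HNF1 motif, in Lect2. The sequences run 5′ to 3′ on the gene's strand, which is the minus strand in all 3.
Fgf21, chr7:45615491-45615740, the 250 bases before the start site: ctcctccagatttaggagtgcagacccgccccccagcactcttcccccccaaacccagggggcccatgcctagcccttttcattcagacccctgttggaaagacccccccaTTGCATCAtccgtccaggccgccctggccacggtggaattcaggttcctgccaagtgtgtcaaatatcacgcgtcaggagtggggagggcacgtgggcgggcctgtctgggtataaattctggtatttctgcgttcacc
Fgf21, chr7:45615611-45615640, around the match: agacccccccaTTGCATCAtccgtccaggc
Inhbe, chr10:127352011-127352040, around the match: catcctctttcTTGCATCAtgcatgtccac
Lect2, chr13:56548589-56548788, from base -250 to base -51: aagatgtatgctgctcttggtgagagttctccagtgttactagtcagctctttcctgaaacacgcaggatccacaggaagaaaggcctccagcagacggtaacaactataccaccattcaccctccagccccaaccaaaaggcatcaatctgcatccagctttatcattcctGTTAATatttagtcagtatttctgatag

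In the window of 250 bases before the RefSeq start site, both strands searched, TGATGNAA was present in Fgf21 (bases -139 to -132) and Inhbe (bases -181 to -174) and in none of the other 5 genes. Both matches read TTGCATCA on the gene's strand, which is the motif on the opposite strand. Of 32841 RefSeq promoter windows of the same length, 3.45% hold this motif. The Inhbe match precedes the RefSeq start but lies in the longer first exon of the GENCODE M21 transcript, so its place relative to the start depends on the annotation. GTTAAT was present in Lect2 (bases -78 to -73) and Igfbp1 and is held by 6.43% of windows. The Lect2 stretch shown ends at base -51 because an earlier RefSeq start transcribes the bases after it. The place of the Lect2 match relative to the start therefore depends on the start used. The C/EBP core TTGCNNAA, which can overlap TGATGNAA, was present in Ahsg and is held by 9.57% of windows. TTCCNGGAA, the STAT motif (0.913% of windows), was in 0 of the 7 genes. So were direct repeats of AGGNCA with 1 base between (0.338%) and of AGNTCA with 4 bases between (0.104%). A match describes letters and does not show a bound factor.

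The response to TCPOBOP was present in every comparison. Cyp2b10, the prototypical CAR target, was 133, 67.9, 231 and 96.8 times higher with TCPOBOP than with vehicle in 2-week males, 2-week females, 8-week high-oil males and 8-week low-oil males. The CAR targets Cyp2c55 (144-fold to 216-fold), Gstm3 (23.1-fold to 44.8-fold) and Gadd45b (11.5-fold to 35.2-fold) also rose in all 4, and Nr1i3, the receptor's own gene, fell 2.98-fold to 5.94-fold, with adjusted p of at most 1.22e-07 in the authors' deposited table. The liver label was matched by the markers: 8 hepatocyte markers summed to between 5439 and 15594 FPKM per group, against 7.69 to 199 FPKM across the lists of markers of other cell types. No marker of the 6 cell-type lists was at 0 in any group. Some markers moved with TCPOBOP. Of 8 stellate markers 2, 2, 2 and 3 were higher and 0, 0, 0 and 1 lower in the 4 comparisons, in the order given for Cyp2b10, with list medians of -0.06, 0.15, 0.34 and -0.03 on the log2 scale. Those higher in all 4 comparisons were the collagen genes Col1a1, by 3.34-fold to 6.52-fold, and Col3a1, by 1.86-fold to 2.50-fold in the authors' deposited table, while in 8-week low-oil males Acta2 was higher and Lrat lower. Of 8 hepatocyte markers 0, 0, 1 and 1 were higher (Apoa1 both times) and 1, 1, 0 and 1 lower (Alb in 2-week males, Tat in the other 2). The macrophage marker Lyz2 was higher in 2-week females and 8-week high-oil males, and the cholangiocyte marker Spp1 in 8-week low-oil males. The part of these markers in the results below was not tested.

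Among the 10 genes TCPOBOP lowered Fgf21 and Inhbe and raised Lect2, Fst and Fetub in at least 1 of 4 comparisons, which share no library. Angptl4, Igfbp1, Igfbp2, Fgl1 and Ahsg passed the test in none of the 4. A gene was called at an adjusted p under 0.05 in the authors' deposited table, taken as adjusted over all its genes. The deposited folds carry a scaling beyond the FPKM ratio, whose median was between -0.11 and 0.05 on the log2 scale in these 4 comparisons. In 2-week males 2 of the 10 were higher, against 2.52% of all genes, and 2 were lower, against 1.78%. In 2-week females 1 was higher, against 3.45%, and 2 were lower, against 3.18%. In 8-week high-oil males 3 were higher, against 4.08%, and 1 was lower, against 1.88%. In 8-week low-oil males 2 were higher, against 3.72%, and 2 were lower, against 2.81%. All 10 genes reached 1 FPKM in some group of each comparison, and among genes at that level the called share was larger, between 2.97% and 7.59%. Lect2 was called higher in all 4 comparisons, as were 0.959% of all genes, and Inhbe was called lower in all 4, as were 0.314%. The 10 genes were chosen with earlier results of these data known, so these counts do not test the set. The median log2 fold change of the 10 genes was -0.22, -0.28, 0.46 and 0.06 in these comparisons in the order above, beside 0.00 over all genes in each.

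**Figure D1:**
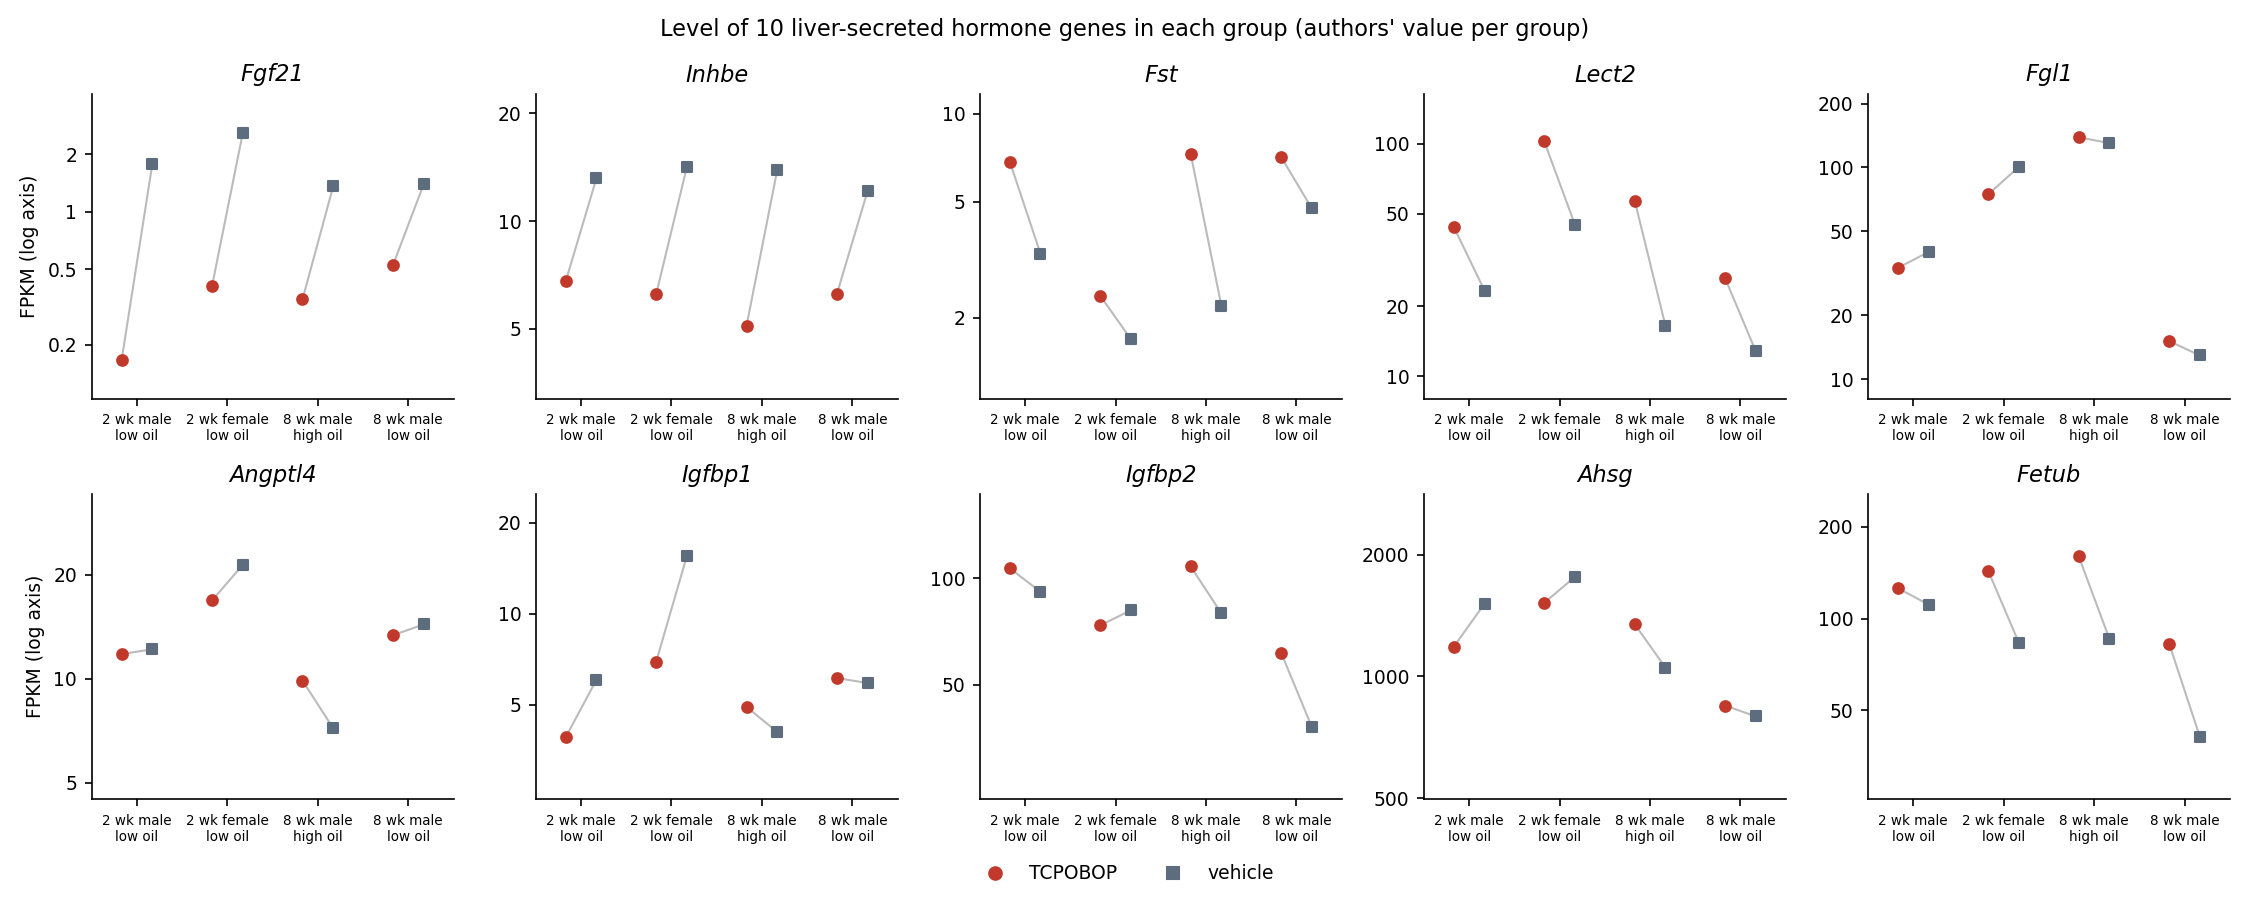
Levels of the 10 genes in FPKM (log axis, its range set per gene) in the 4 pairs of groups, TCPOBOP as red circles left of vehicle as grey squares, with 1 value by the authors per group and no error. Fgf21 and Inhbe lie lower with TCPOBOP in all 4 pairs and Lect2 and Fst lie higher, while Fgl1 differs more between the pairs than within them.

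**Figure D2:**
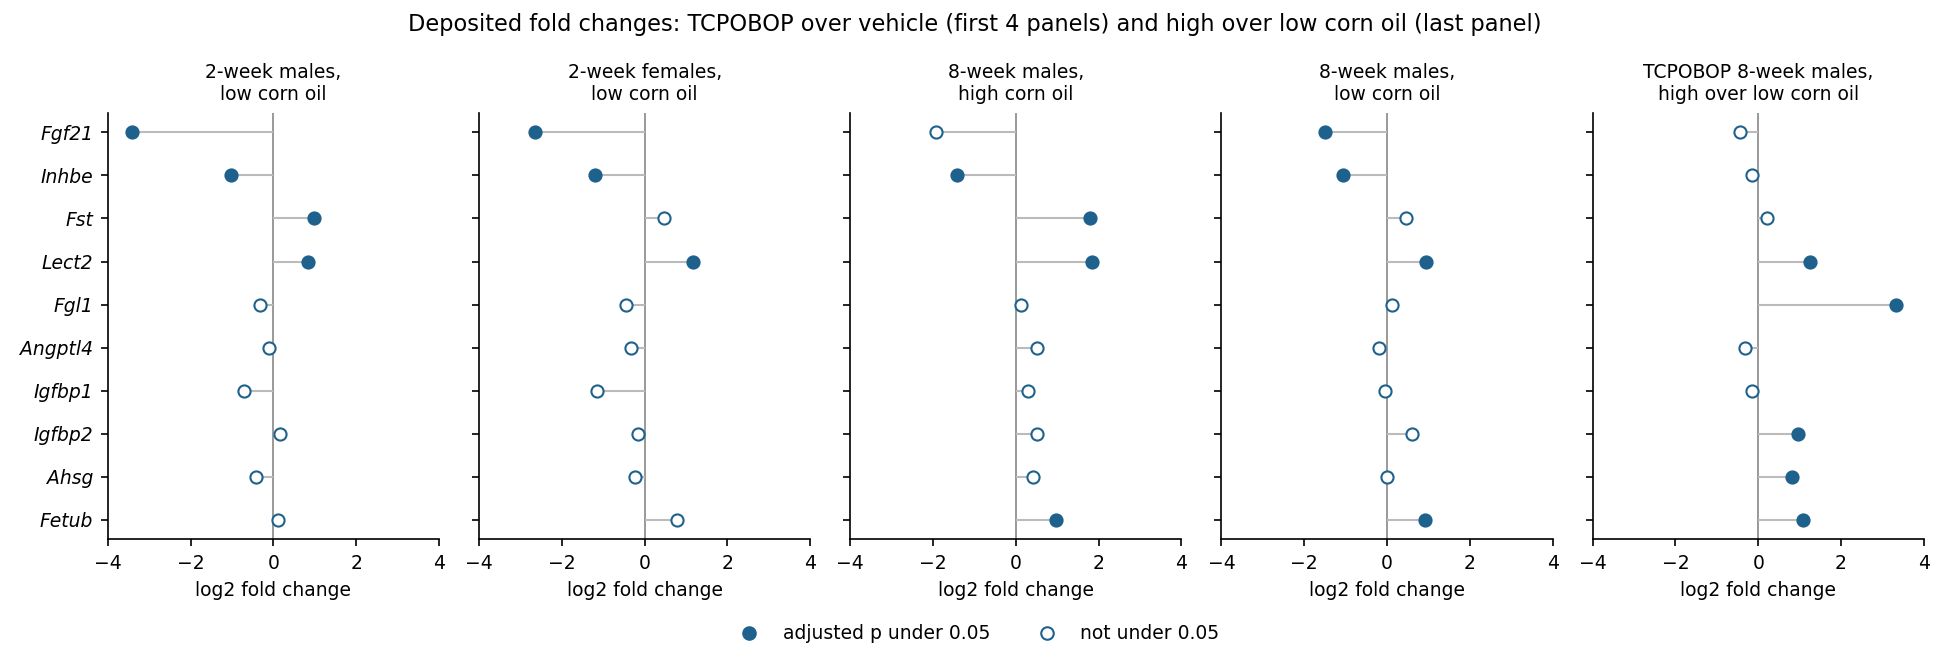
Log2 fold changes of the 10 genes from the authors' deposited table, TCPOBOP over vehicle in the first 4 panels and high over low corn oil among TCPOBOP males in the last. Filled circles have an adjusted p under 0.05. Fgf21 spans -3.42 to -1.50 in the first 4 panels, and Fgl1 reaches 3.33 in the last.

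Fgf21, the fasting hormone, had the lowest median level of the 10 genes over the 8 groups, 0.942 FPKM, and the largest deposited fold change with TCPOBOP among them. In 2-week males its log2 fold change of -3.42 became -2.82 as an FPKM ratio with pseudocount 0.1 and -1.25 with pseudocount 1. With pseudocount 1, Lect2 in 8-week high-oil males, at 1.73, was larger in size than any Fgf21 value. The level of Fgf21 was 0.167 FPKM in TCPOBOP males and 1.78 FPKM in vehicle males at 2 weeks, and 0.408 FPKM in TCPOBOP females and 2.59 FPKM in vehicle females. At 8 weeks it was 0.347 FPKM in TCPOBOP and 1.36 FPKM in vehicle males of the high-oil regimen, and 0.523 FPKM in TCPOBOP and 1.39 FPKM in vehicle males of the low-oil regimen. All 4 TCPOBOP values lay below all 4 vehicle values, the nearest being 0.523 and 1.36 FPKM. In whole liver, fewer cells of a type and less RNA per cell cannot be told apart. Fgf21 fell 10.7-fold in 2-week males (adjusted p = 5.28e-08) and 6.32-fold in 2-week females (adjusted p = 5.52e-09) in the authors' deposited table. It fell 2.83-fold in 8-week low-oil males in the same authors' deposited table (adjusted p = 0.00985). The 8-week high-oil males gave a 3.81-fold lower value that did not pass the test there (adjusted p = 0.0648 in the authors' deposited table). The 8-week folds were smaller in size than the 2-week male fold, but a difference between the comparisons was not tested. The vehicle level was also lower at 8 weeks, at 1.36 and 1.39 FPKM, than in 2-week males, without a test.

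The list of 16 genes of the FGF21 axis held Fgf21, its receptors and co-receptor, PPARα and targets of PPARα. Including Fgf21, 4 of 16 were lower in 2-week males, 4 in 2-week females, 2 in 8-week high-oil males and 4 in 8-week low-oil males, and 0 were higher in any of these 4 comparisons. The list median log2 fold change was -0.44, -0.23, -0.71 and -0.42 in that order, beside 0.00 over all genes. Klb, which encodes beta-klotho, was at 1.24 FPKM in TCPOBOP and 2.70 FPKM in vehicle males at 2 weeks, a 2.28-fold fall in the authors' deposited table (adjusted p = 9.39e-05). Its other 3 comparisons gave lower values, 1.16-fold to 1.88-fold, that did not pass the test. Fgfr1, an FGF receptor, fell 2.87-fold in 8-week high-oil males (adjusted p = 0.000542) and 2.10-fold in 8-week low-oil males (adjusted p = 0.00204) in the authors' deposited table. Its level was low, between 0.439 and 1.31 FPKM over the 8 groups. At 2 weeks it was 1.05-fold higher in males and 1.18-fold lower in females, and neither passed. Pdk4, a pyruvate dehydrogenase kinase and PPARα target, fell 2.48-fold in 2-week females (adjusted p = 0.000157) and 1.91-fold in 8-week low-oil males (adjusted p = 0.0344) in the authors' deposited table.

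The integrated stress response, the ATF4 pathway, is known to act on Fgf21 and Inhbe, and its called genes were mostly higher with TCPOBOP while its median was below 0. Of 16 such genes in 2-week males 3 rose and 0 fell, in 2-week females 2 rose and 1 fell, 3 were higher and 2 lower in 8-week high-oil males, and 4 higher and 2 lower in 8-week low-oil males. Median log2 fold changes of the list were -0.35, -0.02, -0.09 and -0.12. Gdf15, which encodes another stress-induced hormone, was higher in all 4 comparisons. Its level was 19.6 FPKM in TCPOBOP and 3.34 FPKM in vehicle males at 2 weeks, and 31.4 FPKM in TCPOBOP and 4.89 FPKM in vehicle females. In 8-week males it was 45.6 FPKM with TCPOBOP and 3.81 FPKM with vehicle in high oil, and 31.8 FPKM with TCPOBOP and 5.64 FPKM with vehicle in low oil. The 4 TCPOBOP values lay above all 4 vehicle values, opposite to Fgf21 and Inhbe. In the authors' deposited table these rises were 5.58-fold, 6.36-fold, 12.2-fold and 5.21-fold, with adjusted p between 6.88e-24 and 1.33e-13 in the 2-week groups and between 2.15e-25 and 3.19e-21 in the 8-week groups. Trib3, a pseudokinase induced by ATF4, rose 3.11-fold, 4.03-fold, 2.53-fold and 2.13-fold in the same order, with adjusted p from 2.96e-06 to 0.0215 in the authors' deposited table. Vldlr, a lipoprotein receptor gene of the list, rose at 8 weeks, 2.96-fold with high oil (adjusted p = 9.17e-05) and 3.28-fold with low oil (adjusted p = 0.000214) in the authors' deposited table.

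**Figure D3:**
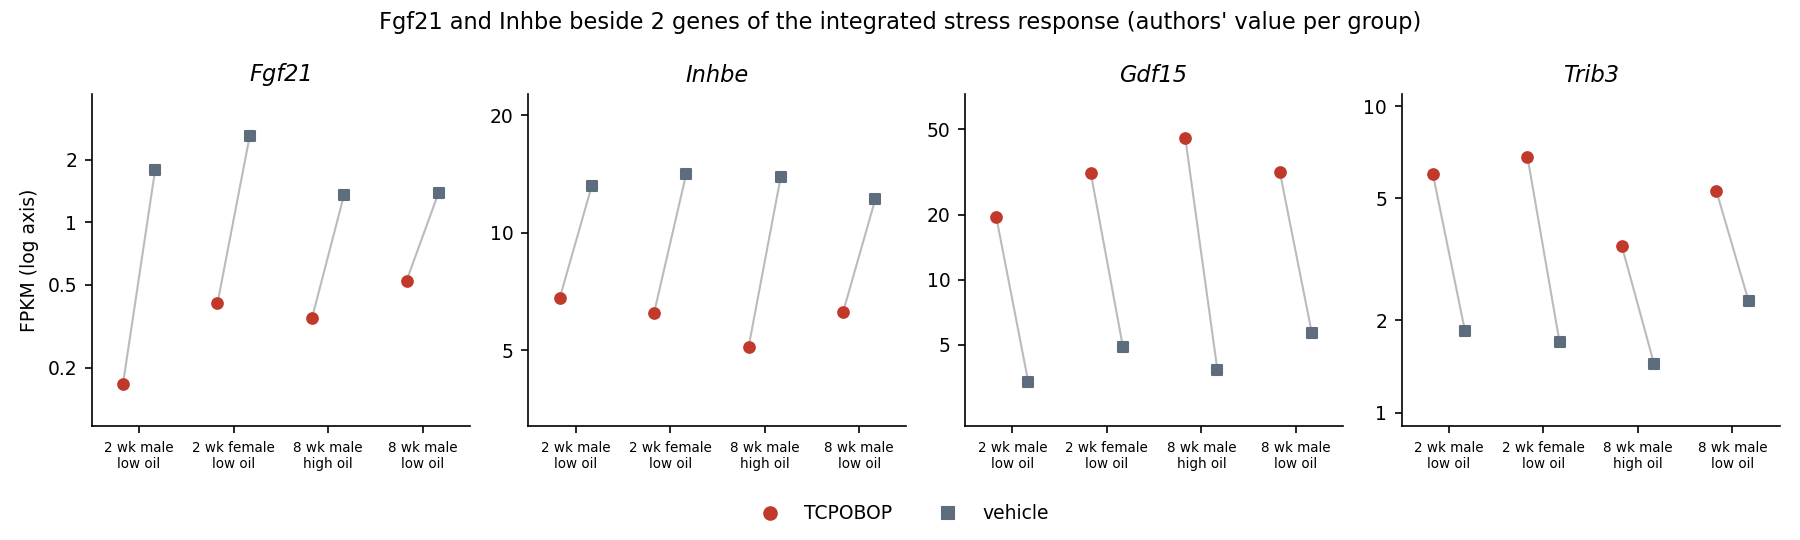
FPKM (log axis) of Fgf21, Inhbe, Gdf15 and Trib3 in the 4 pairs of groups, TCPOBOP as red circles left of vehicle as grey squares, 1 value by the authors per group and no error. Fgf21 and Inhbe lie lower with TCPOBOP in all 4 pairs, whereas Gdf15 and Trib3 lie higher in all 4. Gdf15 and Trib3 had the smallest adjusted p of the 16 genes of the integrated stress response list. The median log2 fold change of that list lay between -0.35 and -0.02.

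Inhbe, the activin βE subunit, was about equally low in the 4 TCPOBOP groups and about equally high in the 4 vehicle groups. At 2 weeks it was at 6.79 FPKM in TCPOBOP and 13.2 FPKM in vehicle males, and at 6.24 FPKM in TCPOBOP and 14.2 FPKM in vehicle females. In 8-week males it was at 5.11 FPKM in TCPOBOP and 13.9 FPKM in vehicle high-oil males, and at 6.27 FPKM in TCPOBOP and 12.2 FPKM in vehicle low-oil males. The TCPOBOP and vehicle values did not overlap. Of genes of at least 1 FPKM, 5.3% had 4 TCPOBOP group values all below the 4 vehicle values, as 2 of the 10 genes had (Fgf21 and Inhbe), and 8.23% had them all above, as 0 of the 10 had. Inhbe fell 2.03-fold in 2-week males (adjusted p = 0.000388) and 2.29-fold in 2-week females (adjusted p = 0.000162) in the authors' deposited table. It fell 2.66-fold in 8-week high-oil males (adjusted p = 9.78e-05) and 2.08-fold in 8-week low-oil males (adjusted p = 0.00293) in the authors' deposited table.

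Inhbc, the neighbouring gene on chromosome 10, encodes the activin βC subunit, which is also made by the liver. It was at 6.64 FPKM in TCPOBOP and 11.6 FPKM in vehicle females, a 1.76-fold fall in the authors' deposited table (adjusted p = 0.0274). In males Inhbc did not pass the test, with values 1.10-fold to 1.53-fold lower. Inhba and Inhbb, which encode the activin βA and βB subunits, passed it in none of the 4 comparisons.

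Fst, the activin antagonist, was higher with TCPOBOP in all 4 pairs of groups and passed the test in 2. It was at 6.86 FPKM in TCPOBOP and 3.31 FPKM in vehicle males at 2 weeks, and at 2.38 FPKM in TCPOBOP and 1.69 FPKM in vehicle females. The 8-week groups had 7.32 FPKM in TCPOBOP and 2.20 FPKM in vehicle high-oil males, and 7.13 FPKM in TCPOBOP and 4.74 FPKM in vehicle low-oil males. The 3 male TCPOBOP values were close together while the 3 male vehicle values ranged from 2.20 to 4.74 FPKM, and both female values lay below all male TCPOBOP values. Fst rose 1.96-fold in 2-week males (adjusted p = 0.0153) and 3.43-fold in 8-week high-oil males (adjusted p = 3.15e-08) in the authors' deposited table. Log2 fold changes of 0.48 in females (adjusted p = 0.611) and 0.47 in 8-week low-oil males (adjusted p = 0.566) in the authors' deposited table did not pass.

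Of the 19 genes of the activin and follistatin system, including Fst and Inhbe, in 2-week males 1 rose and 1 fell, in 2-week females 0 rose and 3 fell, in 8-week high-oil males 1 rose and 1 fell, and in 8-week low-oil males 0 rose and 2 fell. The list median log2 fold change lay between -0.24 and -0.11. Smad7, an inhibitor of signalling by activins and TGF-β, was at 2.16 FPKM in TCPOBOP and 4.59 FPKM in vehicle females, a 2.14-fold fall in the authors' deposited table (adjusted p = 7.32e-07). It also fell 1.55-fold in 8-week low-oil males in the authors' deposited table (adjusted p = 0.0241).

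Lect2, the leukocyte chemotaxin, rose in every comparison with vehicle. It was at 43.8 FPKM in TCPOBOP and 23.4 FPKM in vehicle males at 2 weeks, and at 102 FPKM in TCPOBOP and 44.8 FPKM in vehicle females. Levels at 8 weeks were 57.0 FPKM in TCPOBOP and 16.5 FPKM in vehicle high-oil males, and 26.4 FPKM in TCPOBOP and 12.8 FPKM in vehicle low-oil males. Each TCPOBOP value exceeded its own vehicle value, but the vehicle females lay above 2 of the 3 male TCPOBOP groups. The rise was 1.79-fold in 2-week males (adjusted p = 0.00261) and 2.25-fold in 2-week females (adjusted p = 0.0172) in the authors' deposited table. At 8 weeks it was 3.59-fold with high oil (adjusted p = 1.83e-11) and 1.92-fold with low oil (adjusted p = 0.00479) in the authors' deposited table. Whether the rise differed between regimens was not tested. Lect2 overlaps Fbxl21 in RefSeq, and whether the strand was used in counting was not given in the sources used here. Fbxl21 stood between 0.328 and 0.690 FPKM over the 8 groups.

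Tie1, an endothelial receptor to which LECT2 is known to bind, was also higher in all 4 comparisons. It was at 13.7 FPKM in TCPOBOP and 5.61 FPKM in vehicle males at 2 weeks, and at 11.7 FPKM in TCPOBOP and 7.80 FPKM in vehicle females. After 8 weeks it stood at 16.96 FPKM in TCPOBOP and 5.97 FPKM in vehicle high-oil males, and at 16.5 FPKM in TCPOBOP and 9.24 FPKM in vehicle low-oil males. The 4 TCPOBOP values lay above the 4 vehicle values. The rises were 2.32-fold, 1.49-fold, 2.96-fold and 1.66-fold in that order, with adjusted p from 6.41e-08 to 0.0405 in the authors' deposited table. Of 8 endothelial markers, 0 changed in 2-week males, 1 rose in 2-week females and 0 changed in either 8-week comparison. Their summed level ranged from 104 to 199 FPKM in TCPOBOP groups and from 112 to 181 FPKM in vehicle groups. Of the 6 receptors and partners of FGL1 and LECT2, 1, 2, 1 and 1 were higher and 0 lower, with median log2 fold changes of -0.12, 0.00, 0.04 and 0.13. The added gene in females was Cd209a, another LECT2 receptor in mice, which rose 5.85-fold in the authors' deposited table (adjusted p = 0.000223) and reached at most 0.458 FPKM in any group.

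Leukocyte markers are given beside Lect2. S100a8, a neutrophil gene, was the one marker of 8 for lymphocytes and neutrophils that changed in any of the 4 comparisons, and it rose in all 4, with adjusted p from 4.52e-40 to 0.0159 in the authors' deposited table. It was at 18.3 FPKM in TCPOBOP and 0.236 FPKM in vehicle males at 2 weeks, and at 41.0 FPKM in TCPOBOP and 0.883 FPKM in vehicle females. The values at 8 weeks were 23.4 FPKM in TCPOBOP and 1.70 FPKM in vehicle high-oil males, and 6.32 FPKM in TCPOBOP and 0.976 FPKM in vehicle low-oil males. Summed over the 8 markers, levels ranged from 21.7 to 54.7 FPKM in TCPOBOP groups and from 7.69 to 17.3 FPKM in vehicle groups. S100a8 made up 18.3 of 28.7 FPKM in TCPOBOP males at 2 weeks and 41.0 of 54.7 FPKM in TCPOBOP females. In 8-week TCPOBOP males it made up 23.4 of 37.4 FPKM with high oil and 6.32 of 21.7 FPKM with low oil. The sum therefore does not describe the other markers alone. The part of the 8 markers in the level of Lect2 was not tested.

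Ahsg and Fetub, which encode fetuin-A and fetuin-B, lie next to each other on chromosome 16. Fetub passed the test at 8 weeks in both regimens, and Ahsg in no comparison with vehicle. Fetub was at 126 FPKM in TCPOBOP and 111 FPKM in vehicle males at 2 weeks, and at 143 FPKM in TCPOBOP and 83.0 FPKM in vehicle females. In 8-week males it was at 160 FPKM in TCPOBOP and 85.6 FPKM in vehicle high-oil males, and at 82.7 FPKM in TCPOBOP and 40.8 FPKM in vehicle low-oil males. The TCPOBOP value was the higher in each pair, though the low-oil TCPOBOP value lay below 3 of the 4 vehicle values. Fetub rose 1.94-fold in 8-week high-oil males (adjusted p = 0.00295) and 1.90-fold in 8-week low-oil males (adjusted p = 0.0156) in the authors' deposited table. At 2 weeks the values were 1.08-fold higher in males (adjusted p = 1.00) and 1.70-fold higher in females (adjusted p = 0.171) in the authors' deposited table, and neither passed.

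Ahsg, the most abundant of the 10 transcripts, was at 1184 FPKM in TCPOBOP and 1513 FPKM in vehicle males at 2 weeks, and at 1520 FPKM in TCPOBOP and 1762 FPKM in vehicle females. The 8-week groups had 1346 FPKM in TCPOBOP and 1051 FPKM in vehicle high-oil males, and 847 FPKM in TCPOBOP and 796 FPKM in vehicle low-oil males. The FPKM were lower with TCPOBOP at 2 weeks and higher at 8 weeks, with no call, and the deposited log2 fold change of 8-week low-oil males was -0.01. In RefSeq Ahsg overlaps the long noncoding gene Gm30505, which stood between 0.251 and 0.984 FPKM, and Fst overlaps Gm41074. Adjusted p was between 0.541 and 1.00 in the authors' deposited table. A difference between the responses of Ahsg and Fetub was not tested. Of the 6 measured genes of this superfamily, 2 rose in 8-week high-oil males, Fetub and Cst3 (cystatin C), and 1 in 8-week low-oil males, with list medians of 0.65 and 0.55 on the log2 scale. At 2 weeks 0 of the 6 were called. Hrg, Kng2 and Kng1, the genes that follow Fetub on the chromosome, passed the test in none of the 4 comparisons.

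Igfbp1 and Igfbp2 did not pass the test in any comparison with vehicle. Igfbp1, whose transcription insulin is known to suppress, was at 3.91 FPKM in TCPOBOP and 6.06 FPKM in vehicle males at 2 weeks, and at 6.94 FPKM in TCPOBOP and 15.6 FPKM in vehicle females. Levels at 8 weeks were 4.92 FPKM in TCPOBOP and 4.07 FPKM in vehicle high-oil males, and 6.14 FPKM in TCPOBOP and 5.91 FPKM in vehicle low-oil males. In the low-oil males the deposited log2 fold change was -0.06, though the FPKM ratio is above 1. The vehicle females stood apart, while the other 7 values lay between 3.91 and 6.94 FPKM. In females the value was 2.23-fold lower (adjusted p = 0.146 in the authors' deposited table). This fold is larger than those of several genes that passed, and the spread between mice behind it is not known. Other genes that insulin is known to hold down through FOXO1 passed in females: G6pc, the glucose-6-phosphatase catalytic subunit, fell 7.07-fold (adjusted p = 4.81e-14) in the authors' deposited table. Pck1, which encodes phosphoenolpyruvate carboxykinase, fell 2.48-fold there (adjusted p = 0.0208 in the authors' deposited table). Of the 12 genes of that list 2 were lower in females, 1 in 8-week high-oil males (Foxo3) and 0 in the remaining comparisons with vehicle, and 0 were higher. The list median log2 fold change was -0.21, -0.04, -0.23 and -0.04.

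Igfbp2 was at 107 FPKM in TCPOBOP and 91.7 FPKM in vehicle males at 2 weeks, and at 73.7 FPKM in TCPOBOP and 81.3 FPKM in vehicle females. After 8 weeks it stood at 108 FPKM in TCPOBOP and 79.7 FPKM in vehicle high-oil males, and at 61.7 FPKM in TCPOBOP and 38.0 FPKM in vehicle low-oil males. All 3 male pairs were higher with TCPOBOP, by 1.11-fold to 1.51-fold, and the lowest adjusted p was 0.191 in the authors' deposited table. Among 16 IGF system genes, Igfbp5 fell 2.91-fold in 2-week males (adjusted p = 0.00553) and 2.36-fold in 2-week females (adjusted p = 5.24e-05) in the authors' deposited table. Igfbp5, another IGF binding protein, adjoins Igfbp2 on chromosome 1. Igfbp3, the main carrier of IGFs in plasma, adjoins Igfbp1 on chromosome 11 and rose 2.24-fold in 8-week high-oil males in the authors' deposited table (adjusted p = 0.000925). Igf1 itself was at 23.3 FPKM in TCPOBOP and 41.5 FPKM in vehicle females, a 1.80-fold fall in the authors' deposited table (adjusted p = 0.0453), with no call in males. In total 0 of the 16 rose and 1 fell in 2-week males, 0 rose and 2 fell in 2-week females, 1 rose and 0 fell in 8-week high-oil males, and 0 rose and 0 fell in 8-week low-oil males, with list medians of -0.17, -0.12, 0.19 and 0.04.

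Angptl4, the lipoprotein lipase inhibitor, was at 11.8 FPKM in TCPOBOP and 12.2 FPKM in vehicle males at 2 weeks, and at 16.8 FPKM in TCPOBOP and 21.3 FPKM in vehicle females. The values at 8 weeks were 9.88 FPKM in TCPOBOP and 7.19 FPKM in vehicle high-oil males, and 13.4 FPKM in TCPOBOP and 14.4 FPKM in vehicle low-oil males. The direction varied between pairs and adjusted p was at least 0.432 in the authors' deposited table. Some genes that act with it did change. Lpl, the lipase itself, was at 15.6 FPKM in TCPOBOP and 5.66 FPKM in vehicle males at 2 weeks, a 2.64-fold rise in the authors' deposited table (adjusted p = 1.05e-05). Lpl also rose 7.21-fold in 8-week high-oil males (adjusted p = 1.32e-13) and 5.07-fold in 8-week low-oil males (adjusted p = 6.2e-10) in the authors' deposited table, and was 1.57-fold higher in females without passing. Pparg, a lipogenic nuclear receptor, rose in all 4 comparisons, 2.25-fold to 4.29-fold, with adjusted p from 8.71e-06 to 0.0215 in the authors' deposited table.

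Gm6484, which RefSeq gives as a synonym of Angptl8, encodes a secreted protein of the liver that is induced by feeding. It was at 43.2 FPKM in TCPOBOP and 83.1 FPKM in vehicle males at 2 weeks, and at 54.4 FPKM in TCPOBOP and 87.9 FPKM in vehicle females. In 8-week males it was at 55.5 FPKM in TCPOBOP and 139 FPKM in vehicle high-oil males, and at 52.6 FPKM in TCPOBOP and 195 FPKM in vehicle low-oil males. The falls were 2.02-fold in 2-week males (adjusted p = 0.0141), 2.46-fold with high oil (adjusted p = 0.0101) and 4.04-fold with low oil at 8 weeks (adjusted p = 1.77e-05) in the authors' deposited table. In females it was 1.64-fold lower without passing. Of the 14 measured genes of the ANGPTL and lipase list, 2, 1, 2 and 2 were higher and 1, 2, 1 and 2 lower, with median log2 fold changes of -0.11, -0.02, 0.40 and 0.00.

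Fgl1 did not change with TCPOBOP beyond the test's threshold in any of the 4 comparisons, and it was the gene of the 10 whose level differed most between the 2 regimens at 8 weeks. It was at 33.5 FPKM in TCPOBOP and 39.9 FPKM in vehicle males at 2 weeks, and at 74.6 FPKM in TCPOBOP and 101 FPKM in vehicle females. The 8-week groups had 139 FPKM in TCPOBOP and 130 FPKM in vehicle high-oil males, and 15.1 FPKM in TCPOBOP and 12.9 FPKM in vehicle low-oil males. The widest ratio between TCPOBOP and vehicle was 1.38-fold, in females (adjusted p = 0.446 in the authors' deposited table). The authors' deposited table also compares both 8-week TCPOBOP groups, high over low corn oil, and there Fgl1 was 10.0-fold higher (adjusted p = 5.78e-21). These libraries also enter the 2 comparisons with vehicle at 8 weeks. Corn oil volume, DMSO share, later TCPOBOP dose and set code (G184 with high oil, G186 with low oil) differ together between these groups and cannot be told apart.

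In that comparison 5 of the 10 genes were higher with high oil, against 3.6% of all genes, and 0 were lower, against 3.81%. Besides Fgl1 these were Lect2, 2.38-fold higher (adjusted p = 8.27e-05), and Fetub, 2.12-fold higher (adjusted p = 0.00628), in the authors' deposited table. Igfbp2 was 1.93-fold (adjusted p = 0.00427) and Ahsg 1.75-fold higher (adjusted p = 0.0402) in the authors' deposited table. Among genes of at least 1 FPKM 7.6% were called higher. The deposited folds of this comparison exceeded the FPKM ratios by a median of 0.15 on the log2 scale, so a ratio taken from the FPKM is slightly smaller than the fold given. The median log2 fold change of the 10 genes was 0.51, beside 0.00 over all genes. Inhbe and Fgf21, the genes TCPOBOP lowered, did not pass here, with adjusted p of 1.00 and 0.973 in the authors' deposited table. Of the activin subunits Inhba, which encodes activin βA, was at 10.5 FPKM with high and 5.44 FPKM with low oil, 2.16-fold higher in the authors' deposited table (adjusted p = 0.000133).

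Between vehicle mice of the 2 regimens the table holds no test, and ratios of their FPKM are given. Of the 10 genes 3 were at least 2-fold higher with high oil, against 2.0% of genes of at least 1 FPKM, and 1 was at least 2-fold lower, against 2.08%. Fgl1 was 9.99-fold higher, a ratio exceeded by 7 of 10631 genes. Igfbp2 and Fetub were each 2.09-fold higher, while Fst was lower with high oil, at 2.20 FPKM against 4.74 FPKM with low oil. These vehicle groups also differ in treatment time, age and set code, and how much of the ratios each accounts for was not tested.

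Saa1 and Saa2, acute-phase serum amyloid genes, were set beside Fgl1 together with Fgg and Alb, all chosen after their values were seen. Saa1 was at 438 FPKM with high and 39.3 FPKM with low oil in TCPOBOP males, and at 359 FPKM with high and 18.8 FPKM with low oil in vehicle males. Saa2 was at 251 FPKM with high and 20.4 FPKM with low oil in TCPOBOP males, and at 193 FPKM with high and 6.09 FPKM with low oil in vehicle males. The 2 genes are close copies, and reads that match both may be counted for either. Between TCPOBOP groups the authors' deposited table gives Saa1 as 12.3-fold higher (adjusted p = 7.47e-20) and Saa2 as 13.6-fold higher (adjusted p = 1.06e-15). The fibrinogen gene Fgg was at 1160 FPKM with high and 633 FPKM with low oil in these TCPOBOP males. It was 2.02-fold higher in the authors' deposited table (adjusted p = 0.000182). Alb was 1.30-fold higher without passing the test (adjusted p = 0.72 in the authors' deposited table). Saa1 also rose with TCPOBOP in 2-week males, 3.14-fold (adjusted p = 4.92e-05), and in 2-week females, 2.22-fold (adjusted p = 0.000458), in the authors' deposited table. Saa2 rose with TCPOBOP in 2-week males (2.95-fold), in 2-week females (1.95-fold) and in 8-week low-oil males (3.09-fold), with adjusted p from 0.000791 to 0.00331 in the authors' deposited table. In 8-week high-oil males neither passed the test.

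Cell-type markers also moved between the TCPOBOP groups of the 2 regimens. Of 8 endothelial markers 5 were lower with high oil, by 1.84-fold to 2.10-fold, and their summed level was 104 FPKM with high and 176 FPKM with low oil. Of 8 hepatocyte markers 2 were higher (Apoa1 and Serpina1c), and their summed level was 12156 FPKM with high and 8176 FPKM with low oil. The neutrophil gene S100a9 was 2.30-fold higher with high oil (adjusted p = 0.0255) and Col1a1 was 2.02-fold lower (adjusted p = 0.0497) in the authors' deposited table. No other marker of the 6 lists was called between these groups. In the vehicle groups the hepatocyte sum was 8942 FPKM with high and 5439 FPKM with low oil. The part of these shifts in the levels of Fgl1, Igfbp2, Ahsg, Fetub and Lect2 was not tested.

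**Figure D4:**
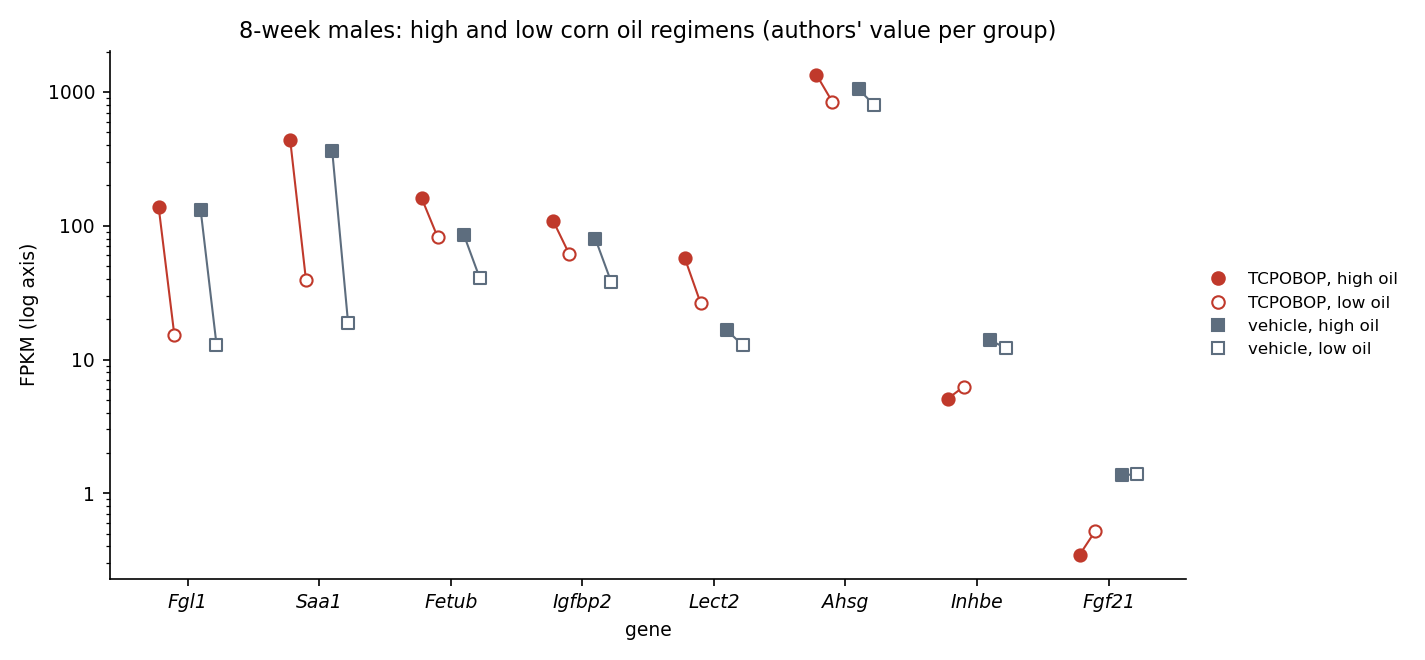
FPKM (log axis) in 8-week males for 5 of the 10 genes, those that were higher with high than with low corn oil under TCPOBOP, with Saa1, Inhbe and Fgf21 for comparison. Red circles are TCPOBOP and grey squares vehicle, filled for high oil and open for low oil, 1 value by the authors per group and no error. Fgl1 and Saa1 show the widest gaps between regimens in both TCPOBOP and vehicle mice, whereas Inhbe and Fgf21 separate by TCPOBOP.

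Vehicle females and males at 2 weeks were compared as ratios without a test. Of the 10 genes 2 were at least 2-fold higher in females, against 2.22% of genes of at least 1 FPKM, and 0 were at least 2-fold lower, against 1.5%. Igfbp1 was 2.54-fold higher, at 15.6 FPKM in females and 6.06 FPKM in males, and Fgl1 was 2.52-fold higher, at 101 FPKM in females and 39.9 FPKM in males. Lect2 was 1.92-fold higher in females, and Fst was 1.91-fold lower. Fgf21 had its highest level of all groups in vehicle females. Vehicle males of the low-oil regimen were lower after 4 to 8 weeks than at 2 weeks in 3 of the 10 genes by at least 2-fold, against 2.1% of genes, and higher in 0, against 3.49%. These were Fgl1 (3.07-fold), Fetub (2.72-fold) and Igfbp2 (2.41-fold), the genes that were also lower with low than with high oil at 8 weeks. The 2 ratios share the low-oil vehicle group of 4 to 8 weeks, whose libraries carry set code G186. Its mice were 11 to 16 weeks old, against 9 to 10 weeks for the 2-week vehicle males. The 8 hepatocyte markers summed to 5439.3 FPKM in this group and 13804.5 FPKM in 2-week vehicle males. Alb was at 2433 and 7834 FPKM in that order, and the lowest of the 8 at 47.5 and 42.1 FPKM. The part of age and of this shift in the ratios was not tested.

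The order of levels over the 8 groups grouped several of the genes. Fgf21 and Inhbe followed the agonist, with all vehicle groups above all TCPOBOP groups, and their log2 levels correlated at r = 0.90 over the 8 group values. Igfbp2, Fgl1, Ahsg, Fetub and Lect2 each had their lowest value in low-oil vehicle males of 4 to 8 weeks, and Igfbp2 and Fetub correlated at r = 0.87. The sum of the 8 hepatocyte markers was also lowest in that group, at 5439 FPKM. The next lowest sum was 8176 FPKM, in 8-week low-oil TCPOBOP males, so this lowest place is not particular to these genes. Igfbp1 and Angptl4 were highest in vehicle females, followed by TCPOBOP females, and correlated at r = 0.84. Without errors it cannot be said which neighbours in these orders differ. The 2-week groups and the 8-week high-oil groups carry set code G184, apart from 1 library of TCPOBOP females, and the other 2 groups carry G186. These coefficients describe 8 points.

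The genes most alike in pattern were found by Pearson r of log2(FPKM + 0.1) over the 8 groups among 9525 genes of at least 2 FPKM in some group. For Fgf21 these were Dgka (r = 0.973), Abcg5 (r = 0.969) and Cep63 (r = 0.959). For Inhbe they were Eml4 (r = 0.977), Ddx19b (r = 0.971) and again Cep63 (r = 0.971). Lect2 was most like Rpl3 (r = 0.985), Fetub most like Bcap31 (r = 0.994) and Plg (r = 0.992), and Fgl1 most like Emg1 (r = 0.963). With 8 group values and so many genes searched, coefficients of this size are a description of likeness.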

How the data were processed

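Polyadenylated nuclear RNA of 28 mouse livers was sequenced as stranded libraries, per the labels. Reads were processed with TopHat2 2.0.13, featureCounts 1.4.6-p5 and edgeR on build mm9, per the submitters' processing notes, over the gene body of RefSeq genes, per the file headers. Each group has 1 deposited FPKM value, and the way it was made from the replicates was not given in the sources used here. A positive fold score of the authors is numerator over denominator, and a negative one is minus the inverse ratio. The deposited p-value is from edgeR, per the file headers. It equals 1 for 44.8% to 55.5% of genes above 0, as adjusted values do, and is called adjusted p here. Calls at an adjusted p under 0.05 number as in the file header.

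The table holds no values of single libraries. The count test of the design could not be run, and the depth, total counts, errors and left-out replicates are not known. Replicates are separate mice, so the deposited p-values measure the spread between mice. Of 24197 genes, 4917 were listed at 0 in all groups.

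Here signed folds were put on a log2 scale, group FPKM ratios were taken as log2 after adding a pseudocount of 0.1, and motifs, likeness (Pearson r) and list counts were computed with Python 3.11.15, pandas 2.3.3, numpy 2.4.6 and matplotlib 3.10.9, tested on simulated data. The genes named were all 10 members, up to 3 genes of each pathway list with the smallest adjusted p in a TCPOBOP comparison if under 0.05, the 3 most alike genes of members, and the 5 genes that check the response to TCPOBOP. Saa1, Saa2, Fgg, the activin subunits, Hrg, Kng1, Kng2 and the cell-type markers named singly were picked with their values in view. Both members and lists were chosen with earlier results of these data known. RefSeq promoter coordinates are of GRCm38.p6 and were not joined to mm9 positions.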

Additional observations from a re-analysis of the deposited data

How the results depend on the processing

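No paired analysis was possible because the deposited table holds pooled group values, so replicate numbers shared by groups could not be used. For the same reason the planned fits on counts (edgeR, DESeq2, another normalization) and the fits without a replicate were not run, and the depth of a library limits no value in a known way. Over 60 recomputed counts of called members, 51 stayed within 1.5 times. At an adjusted p under 0.01 the members higher numbered 1 in 2-week males, 0 in 2-week females and 1 in 8-week low-oil males. With a 2-fold minimum they numbered 0 in 2-week males, 0 in 8-week low-oil males and 3 for high over low corn oil. With at least 2 FPKM in the higher group, which Fgf21 misses, the members lower numbered 1 in 2-week males and 1 in 8-week low-oil males. At an adjusted p under 0.1, 2 members were lower in 8-week high-oil males, the added one being Fgf21. Of 150 recomputed member log2 fold changes, 145 kept their direction. The exceptions were uncalled values near 0 in 8-week low-oil males: Igfbp1 at -0.06 became 0.05 as an FPKM ratio with either pseudocount, and Ahsg at -0.01 became 0.09 as an FPKM ratio with either pseudocount and 0.01 after subtracting the median of expressed genes.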

Other observations

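Other secreted liver proteins were counted from a list of 20 measured genes, chosen with earlier results known. Of these 3 were higher and 2 lower in 2-week males, 2 higher and 5 lower in 2-week females, 6 higher and 1 lower in 8-week high-oil males, and 3 higher and 2 lower in 8-week low-oil males. Tsku, which encodes tsukushi, a leucine-rich hepatokine, was at 47.0 FPKM in TCPOBOP and 3.78 FPKM in vehicle females, a 12.2-fold rise in the authors' deposited table (adjusted p = 2.79e-45). In males at 2 weeks Tsku was at 26.4 FPKM with TCPOBOP and 14.4 FPKM with vehicle, and in 8-week males at 45.7 FPKM with TCPOBOP and 19.0 FPKM with vehicle under high oil. None of the 3 male comparisons passed, with adjusted p from 0.154 to 0.697 in the authors' deposited table. In 8-week low-oil males it was at 40.7 FPKM with TCPOBOP and 30.6 FPKM with vehicle. The vehicle females, at 3.78 FPKM, had the lowest level of Tsku of all groups, while the 4 TCPOBOP groups lay between 26.4 and 47.0 FPKM. The low-oil vehicle males, at 30.6 FPKM, lay within that range. Whether the response differed between the sexes was not tested. Gpnmb, a glycoprotein gene of the list, was at most 0.520 FPKM in any group, and between 0.0123 and 0.0308 FPKM in the male vehicle groups. It rose 14.0-fold in 2-week males (adjusted p = 6.59e-09) in the authors' deposited table. In 2-week females it was 1.70-fold higher without passing (adjusted p = 0.803 in the authors' deposited table). At 8 weeks it rose by a log2 fold change of 4.17 with high oil (adjusted p = 0.00211) and of 4.67 with low oil (adjusted p = 5.57e-14) in the authors' deposited table. Between the TCPOBOP groups of 8 weeks, 7 of the 20 genes were higher with high than with low corn oil and 0 lower.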
